A study of Oryza sativa with 44 samples.

Results

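The comparison set rice (Oryza sativa) seedlings that overexpress OsYTHDF1A (labelled OE-OsYTHDF1A) directly against a knockout line labelled osythdf1c; the knockouts of the series were made by CRISPR. Its members are 6 of the 44 RNA sequencing libraries of the series, 3 of each line, chosen by their labels alone. Both lines are labelled as NIP, and all plants were raised for 2 weeks in nutrient solution. No wild type entered the contrast, so by label it sets the gain of one reader gene against the loss of another. Any other difference between the lines, in their making, growth or harvest, cannot be told apart from that gain and loss. The 9 other groups labelled NIP (the wild type, 6 knockouts and 2 RNAi knockdowns) shared the statistical fit with the pair and served to place its levels. The 4 groups labelled DJ served only to place levels. The sources used here do not give the promoter of the overexpression construct, the number of independent transformants behind either line, or an organ beyond young seedlings.

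YTH proteins are readers of N6-methyladenosine, the common internal methyl mark of messenger RNA. A pocket in the YTH domain holds the methylated base, and the rest of the protein passes the transcript on to decay, translation or processing factors. In Arabidopsis, readers of the YTHDF type act in the cytoplasm and several of them overlap in function in the growth of leaves and other organs.

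Library totals of the 6 libraries ranged from 15599771 to 20199543 counts, so a gene at 1 CPM (counts scaled by the library total) rested on more than 10 counts in each. Over 13147 well expressed genes (mean above 10 CPM) the median SD between replicates was 0.0645 on the log2 scale in OE-OsYTHDF1A and 0.075 in osythdf1c. These genes and SDs were taken on log2 levels with the TMM scaling described below. The libraries of OE-OsYTHDF1A were more concentrated: their 10 most abundant genes held between 8.74% and 9.02% of all counts, against 5.35% to 5.54% in osythdf1c. The deposited tables identify genes by MSU locus ID or by a running number and do not pair them with names, and the reference table matched 1 ID. The transcripts of OsYTHDF1A and OsYTHDF1C and any organ markers were therefore not analysed here, and loci are given by ID with no function. The series calls the replicates biological, but no label ties them to separate cultures, so a p-value here covers library spread that may in part be technical.

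The lines differed across much of the transcriptome. OE-OsYTHDF1A had 7663 genes higher (27.8%) and 7783 lower (28.2%) than osythdf1c, together 56% of the 27584 tested, at an adjusted p under 0.05 in the quasi-likelihood test of edgeR with Benjamini-Hochberg adjustment. Most of these differences were small, with a median size of 0.58 on the log2 scale. Differences of at least 2-fold numbered 1813 higher (6.57%) and 2780 lower (10.1%) genes, 16.7% in all, and 701 and 1124 of these reached 4-fold. Among the 2-fold genes, 981 of those higher and 1687 of those lower had a mean below 1 CPM in one line. The libraries of the 2 lines did not overlap in CPM for 16377 (59.4%) of the genes tested. In bulk tissue, fewer cells of a type and less RNA per cell cannot be told apart. In the same fit, 63.3% of genes were called for OE-OsYTHDF1A against NIP (32.1% higher, 31.2% lower), with 23.5% at 2-fold or more (9.63% and 13.9%). For osythdf1c against NIP, which shares the NIP libraries, 68.7% were called (34.9% higher, 33.8% lower), with 26.2% at 2-fold or more (12.9% and 13.3%).

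The balance of higher and lower genes depended on how libraries were scaled. TMM, which sets aside the most extreme genes when it matches libraries, gave an even split. From TMM to library totals, the mean log2 scaling factors of the lines changed the contrast by -0.17. In the same edgeR test 4807 genes were then higher and 11061 lower. Among 2-fold differences the library totals gave 1417 higher and 3456 lower genes. Lower genes outnumbered higher ones at 2-fold under both scalings. Fold changes below are from the TMM fit and levels are CPM by library totals, unless TMM scaled levels are named.

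**Figure D1:**
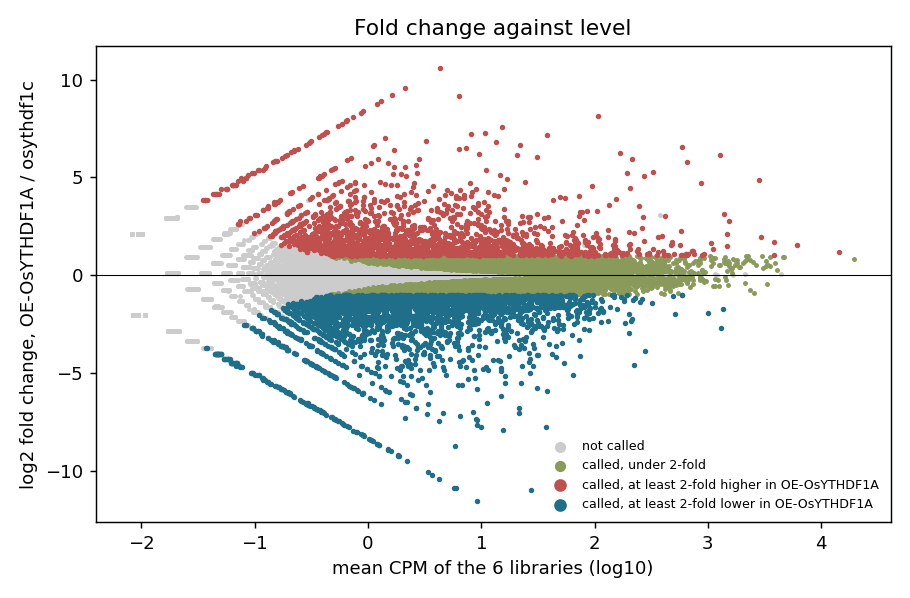
Each point is a gene, with the mean CPM of the 6 libraries on a log10 axis and the log2 fold change of OE-OsYTHDF1A over osythdf1c on the other. Genes called with at least 2-fold (1813 higher, 2780 lower) are coloured by direction; the outer diagonal lines are genes with no counts in one line, whose fitted fold change is no bound.

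The pair was one of the more alike among the 11 groups labelled NIP. Over the well expressed genes the median absolute log2 difference between the mean levels of OE-OsYTHDF1A and osythdf1c was 0.253, rank 10 from the smallest of 55 pairs of groups. Across all pairs it ran from 0.139 for NIP and osythdf3b to 0.634 for osythdf3c and osythdf3b. Each line stood further from the wild type, at 0.295 for OE-OsYTHDF1A and 0.353 for osythdf1c. For both lines the nearest group was osythdf2b, at 0.232 from OE-OsYTHDF1A and 0.175 from osythdf1c. These distances were taken on TMM scaled log2 levels and carry no test.

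The largest differences were close to presence against absence. LOC_Os09g07180 had 13.1, 13.2 and 12.1 CPM in the OE-OsYTHDF1A libraries and 0.0511, 0 and 0 CPM in those of osythdf1c, where a single count was seen. That is a ratio of 674 with an exact 95% counting interval from 121 to 26660. In the wild type the locus lay at 26.8 ± 1.9 CPM (SD, n = 3), nearer to the overexpressing line. Its fitted log2 fold change was 9.16 ± 0.29 (SE), with a Benjamini-Hochberg adjusted p of 6.2e-36 in edgeR, and 11.19 without osythdf1c replicate 1, which held the count.

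LOC_Os12g18410 was far more abundant, with 212, 219 and 210 CPM in OE-OsYTHDF1A against 0.869, 1.03 and 0.622 CPM in osythdf1c (log2 fold change 8.16 ± 0.08, SE; Benjamini-Hochberg adjusted p of 5.8e-62 in edgeR). The 2 lines did not overlap, and the wild type was higher than both at 575 ± 11 CPM (SD, n = 3). Its level in the other NIP groups was spread widely, from 0.511 CPM in osythdf3c to 579 CPM in osythdf4c.

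In the other direction, LOC_Os11g11694 had no counts in OE-OsYTHDF1A and 18.7, 19.7 and 16.5 CPM in osythdf1c. With 3 counts over the overexpressing group as the floor, it was at least 330-fold lower there (Benjamini-Hochberg adjusted p of 4e-33 in edgeR). It was near absent in NIP too, at 0.0284 ± 0.025 CPM (SD, n = 3), but stood at 20.6 CPM in osythdf1b and 16.1 CPM in osythdf3b. LOC_Os09g09210 had 54.2, 56.8 and 54.6 CPM in osythdf1c and a single count in OE-OsYTHDF1A, a ratio of 2989 with an exact 95% counting interval from 536 to 118100. No other NIP group exceeded 0.131 CPM, so the transcript was seen at this level in osythdf1c alone among the 11. Its log2 fold change of -11.00 ± 0.29 (SE; Benjamini-Hochberg adjusted p of 1.1e-35 in edgeR) became -13.13 without OE-OsYTHDF1A replicate 3, which held the count.

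Taking the 20 loci with the largest fitted change each way, with at least 5 CPM in the higher line and no overlap between libraries, the wild type level lay nearer to OE-OsYTHDF1A on the log2 scale for 15 of the 20 that were higher there. It also lay nearer to OE-OsYTHDF1A for 16 of the 20 that were lower there. The 20 higher loci ran from 5.61 to 2491 CPM in OE-OsYTHDF1A, with a median of 28.6 CPM, and had a median of 0.273 CPM in osythdf1c. The 20 lower loci had a median of 14.9 CPM in osythdf1c and 0.0503 CPM in OE-OsYTHDF1A, where 6 of them had no counts. Of the 8 other NIP lines, a median of 3 were nearer to OE-OsYTHDF1A for a higher locus, and a median of 2 nearer to osythdf1c for a lower one. These 40 loci were selected by the contrast itself, and their positions relative to the other groups are a description.

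Abundant transcripts leaned towards the overexpressing line. Of 95 genes at 1000 CPM or more in either line, 90 were called (56% of all genes tested were). Of these, 22 differed by at least 2-fold, 19 higher and 3 lower in OE-OsYTHDF1A. A gene could enter through the line where it was high, so these numbers and the percentages that follow are partly set by the choice. By the mean of the 2 lines, 81 genes were at 1000 CPM or more. Of them 93.8% were called, with 16.05% at least 2-fold higher and 2.47% at least 2-fold lower. The share called rose with level and was already 78.7% from 100 to 1000 CPM. The 19 took 7.11% of all counts in OE-OsYTHDF1A and 2.44% in osythdf1c. All 19 were also higher in CPM by library totals. The threshold of 1000 CPM and the loci named next were chosen after the values were seen. Whether the concentration of counts in a few genes bears on other differences was not tested.

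LOC_Os01g72370 had 1173, 1174 and 1172 CPM in OE-OsYTHDF1A and 14.4, 13 and 15.2 CPM in osythdf1c (log2 fold change 6.54 ± 0.05, SE; Benjamini-Hochberg adjusted p of 1.8e-69 in edgeR). The wild type, at 1112 ± 12 CPM (SD, n = 3), was close to the overexpressing line. Among the other lines it was at 1366 CPM in osythdf4c, 1142 CPM in osythdf3b, 219 CPM in osythdf5c, 129 CPM in osythdf2b, 120 CPM in osythdf1b, 56 CPM in RNAi-OsYTHDC1A, 11.4 CPM in osythdf3c and 7.68 CPM in RNAi-OsYTHDF2C. Of the 11 NIP groups, osythdf1c was one of 3 below 20 CPM.

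LOC_Os12g13340 had 2588, 2505 and 2379 CPM in OE-OsYTHDF1A against 39, 41.7 and 39 CPM in osythdf1c (log2 fold change 6.14 ± 0.09, SE; Benjamini-Hochberg adjusted p of 2e-26 in edgeR). The same 4 groups had the most of it: OE-OsYTHDF1A, osythdf4c at 2294 CPM, NIP at 2149 CPM and osythdf3b at 1818 CPM. Its lowest level among the NIP groups was 33.3 CPM in RNAi-OsYTHDF2C, followed by osythdf1c.

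For the 3 abundant loci that were lower in OE-OsYTHDF1A, the wild type was close to osythdf1c. LOC_Os01g10400 had 300, 306 and 330 CPM in OE-OsYTHDF1A and 2423, 2069 and 2373 CPM in osythdf1c, with 2165 ± 18 CPM in NIP (SD, n = 3). Its log2 fold change was -2.70 ± 0.09 (SE; Benjamini-Hochberg adjusted p of 1.3e-18 in edgeR), and the overexpressing line was the lowest of the 11 NIP groups. LOC_Os07g05360 was at 371 ± 13 CPM in OE-OsYTHDF1A, 1617 ± 131 CPM in osythdf1c and 1758 ± 29 CPM in NIP (SD, n = 3 each), again with OE-OsYTHDF1A lowest of the 11 (log2 fold change -1.95 ± 0.06, SE; Benjamini-Hochberg adjusted p of 7.9e-20 in edgeR). The next lowest group, osythdf1b, had 922 CPM.

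The most abundant locus of the 22, LOC_Os12g17600, differed by less. It stood at 19130 CPM in OE-OsYTHDF1A, 9398 CPM in osythdf1c and 6220 CPM in NIP. Here osythdf1c too was above the wild type, as it was at LOC_Os04g52260 and LOC_Os09g36680. The wild type was therefore not close to OE-OsYTHDF1A at all 19 of the higher abundant loci.

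**Figure D2:**
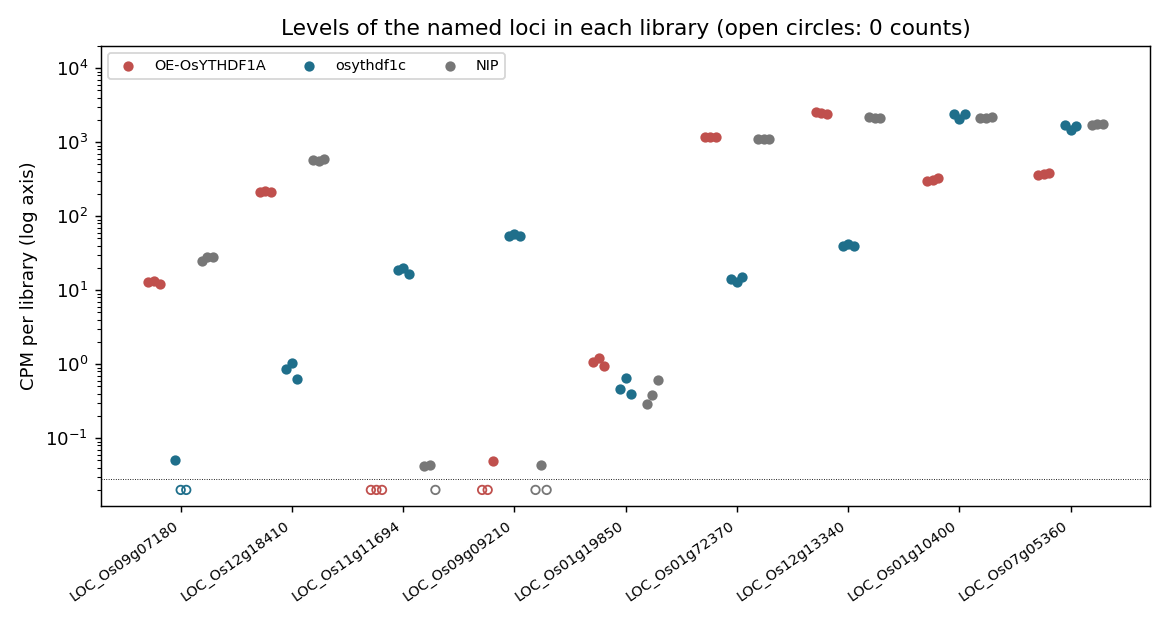
CPM on a log axis for the 9 loci described, with 3 libraries each of OE-OsYTHDF1A, osythdf1c and the NIP wild type; open circles under the dotted line are libraries with 0 counts. At LOC_Os01g72370 and LOC_Os12g13340 the wild type lies beside OE-OsYTHDF1A, and at LOC_Os01g10400 and LOC_Os07g05360 beside osythdf1c.

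The group means of all 11 NIP groups were also set side by side. Of the 1813 genes at least 2-fold higher in OE-OsYTHDF1A, this line was the highest of the 11 groups for 559, and osythdf1c was the lowest for 513. Both held for 40 genes, and for 781 (43.1%) neither line was at the end of the range. Of the 2780 lower genes, OE-OsYTHDF1A was the lowest group for 1182 and osythdf1c the highest for 927. Both held for 176, and neither for 847 (30.5%). Over all genes tested, OE-OsYTHDF1A was the highest group for 1378 and the lowest for 5308 (19.2%), and osythdf1c for 2567 (9.31%) and 2982 (10.8%). Both lines are bound to stand out among genes chosen by their own contrast, so these counts carry no test. Where groups tied for the lowest mean, as with no counts, only the first in a fixed order was taken. In that order osythdf1c stood before OE-OsYTHDF1A, and ties were not counted. Over all genes tested the lean of OE-OsYTHDF1A to the low end was gone with TMM scaled levels, where it was the highest group for 3012 (10.9%) and the lowest for 2748 (9.96%), and osythdf1c for 3038 (11%) and 3145 (11.4%). With TMM scaled levels the order of the counts for the 2780 lower genes turned, with OE-OsYTHDF1A the lowest for 970 and osythdf1c the highest for 1065. For the 1813 higher genes OE-OsYTHDF1A was then the highest for 724 and osythdf1c the lowest for 489. Both then held for 56 of the higher genes and neither for 656 (36.2%). Of the lower genes, both held for 131 and neither for 876 (31.5%).

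Stricter still, 80 genes in OE-OsYTHDF1A lay at least 2-fold above the means of all 10 other NIP groups, and 220 lay at least 2-fold below them. Genes above needed a mean of 1 CPM or more in the line itself. Genes below needed it in each of the 10 other groups. In osythdf1c the counts were 179 above and 34 below. Levels scaled by TMM gave 138 above and 164 below for OE-OsYTHDF1A, and 212 and 38 for osythdf1c. Since the 2 filters differ, the counts above and below are not a like-for-like balance within a line. By library totals, the sum of genes above and below was 300 in OE-OsYTHDF1A and 213 in osythdf1c. It ranged from 20 in osythdf2b to 463 in osythdf3c over the 11 groups, and the wild type itself had 228.

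**Figure D3:**
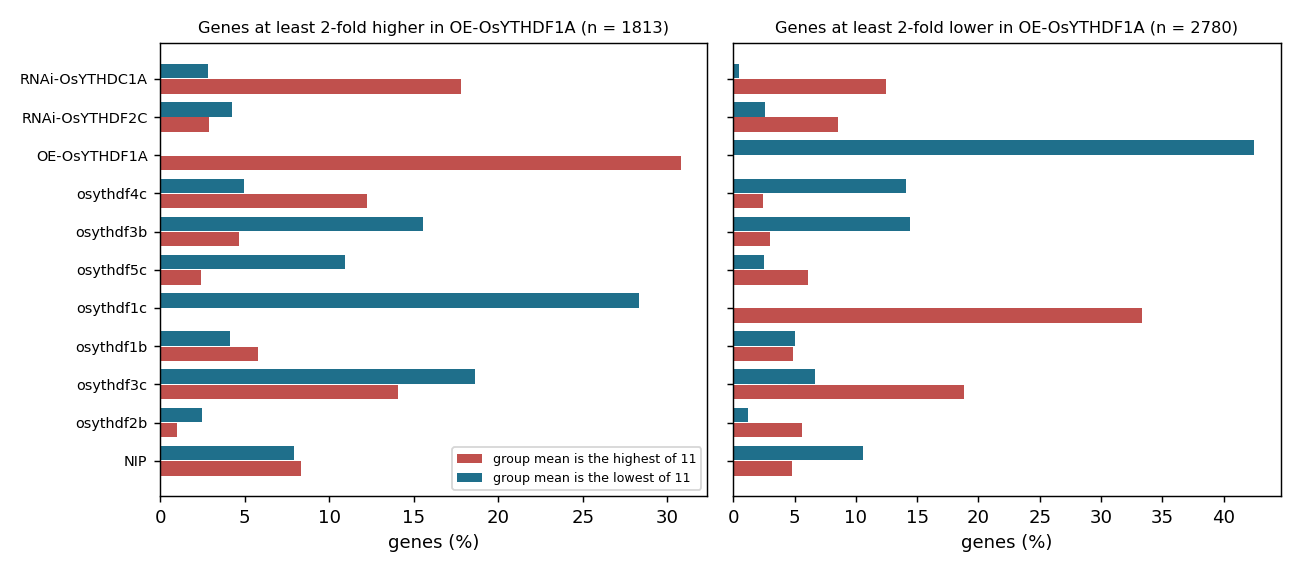
For genes that differed at least 2-fold between the lines, bars give the percentage for which each of the 11 NIP groups had the highest or the lowest mean CPM. OE-OsYTHDF1A was highest for 559 of 1813 genes (left) and lowest for 1182 of 2780 (right); since the genes were chosen by this contrast, both lines are bound to stand out.

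Some genes were present in one line and near absent in the other. A gene was taken as on in a line at 1 CPM or more in every library and as off at 3 counts or fewer in every library. By this rule 43 genes were on in OE-OsYTHDF1A and off in osythdf1c, and 111 were on in osythdf1c and off in OE-OsYTHDF1A. All of them were among the 27584 genes tested. The rule used CPM by library totals and was not repeated with TMM scaled levels, so the balance of the 2 classes may depend on the scaling. Their levels were low, with a median of 2.23 CPM and a maximum of 21.6 CPM for the 43, and a median of 2.28 CPM and a maximum of 55.2 CPM for the 111. Of the 43, 10 had no count at all in osythdf1c, and of the 111, 33 had none in OE-OsYTHDF1A.

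The wild type shared the state of either line for part of each class. Of the 43 genes, NIP had 17 on and 16 off. Of the 111 genes, NIP had 18 on and 52 off, so that 52 were expressed in osythdf1c with at most 3 counts per library in the wild type. In DJ, 32 of these 111 were on and 29 off. Among the NIP lines, osythdf3c had the most of the 111 on (46) and osythdf3b the fewest (19). Of the 43, osythdf4c had 23 on and RNAi-OsYTHDF2C had 1.

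Few of these genes belonged to one group alone. Only 4 of the 43 and 15 of the 111 were on in none of the 14 other groups of the series, and 1 and 3 were off in all 14. Genes listed without a locus ID made up 5 of the 43 and 22 of the 111, beside 1610 of all 27584 genes tested.

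**Figure D4:**
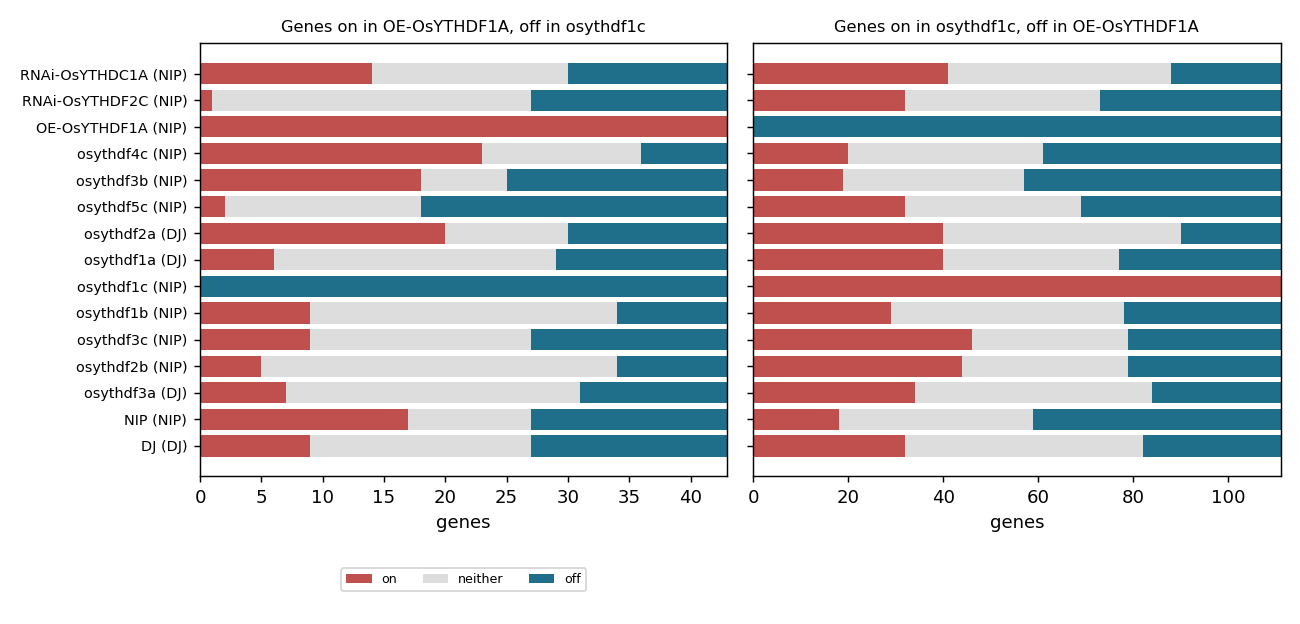
State of the 43 genes on in OE-OsYTHDF1A and off in osythdf1c (left) and of the 111 genes of the opposite class (right) in all 15 groups, with the labelled background in brackets; bars count genes that were on, off or neither. NIP had 52 of the 111 off and 18 on.

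The differing genes were spread over all 12 chromosomes. By chromosome, read from the locus ID, the share of tested loci that differed at least 2-fold ran from 14.8% on chromosomes 3 and 12 to 19% on chromosome 11. In 514 windows of 50 successive measured loci the median was 8 such loci, with a range from 0 to 20. The window with 20 ran from LOC_Os04g28170 to LOC_Os04g30410, where 5 loci were higher and 15 lower in OE-OsYTHDF1A.

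Short blocks of neighbours moved together in places. With a block defined, after the values were seen, as at least 4 successive measured loci that were all called and all at least 4-fold in one direction, 10 blocks with 48 loci were found. Of these, 5 blocks (28 loci) were higher and 5 (20 loci) lower in OE-OsYTHDF1A. Over all 25974 measured loci, 655 were called at least 4-fold higher and 1034 lower, so most of them lay outside blocks. How many blocks the number of such loci alone would give was not tested. Neighbouring loci can be near-identical copies, and how the authors' counting treated reads that fit several copies is not stated, so single values within a block are uncertain.

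Both blocks on chromosome 9 and the higher block on chromosome 1 were low in osythdf1c and present in the wild type. The 7 loci from LOC_Os09g07180 to LOC_Os09g07280 summed to 20.4, 19.9 and 18.1 CPM in OE-OsYTHDF1A, 0.153, 0.192 and 0.452 CPM in osythdf1c and 46.5 ± 2.3 CPM in NIP (SD, n = 3). Over all 8 loci from LOC_Os09g04310 to LOC_Os09g04410 the sums were 81.2, 82.7 and 80.9 CPM, against 9.81, 11.6 and 9.33 CPM, with 153 ± 1.1 CPM in NIP. The 5 loci from LOC_Os01g31010 to LOC_Os01g31050 summed to 136, 131 and 134 CPM in OE-OsYTHDF1A and to 1.74, 1.73 and 1.81 CPM in osythdf1c, with 109 ± 1.8 CPM in NIP (SD, n = 3). For these 3 blocks the high groups were again NIP, osythdf3b, osythdf4c and OE-OsYTHDF1A.

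A block on chromosome 10 had another pattern. The 4 loci from LOC_Os10g05970 to LOC_Os10g06000 summed to 2.2, 2.09 and 2.03 CPM in OE-OsYTHDF1A and 14.7, 12.9 and 12.1 CPM in osythdf1c, without overlap. In the wild type the sum was 2577 ± 76 CPM (SD, n = 3), and the other 8 NIP lines ran from 46.8 CPM in RNAi-OsYTHDF2C to 2243 CPM in osythdf3c. The difference between the 2 lines was thus one between low levels, in a block that was abundant in NIP.

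Of the lower blocks, that on chromosome 5, from LOC_Os05g37040 to LOC_Os05g37080, summed to 40.7 ± 2.4 CPM in osythdf1c and 0.67 ± 0.27 CPM in OE-OsYTHDF1A (SD, n = 3 each). All other NIP groups were below osythdf1c, the nearest being osythdf2b with 15.3 CPM, and NIP had 1.26 CPM. The lower blocks on chromosomes 1 and 2 summed to 84.1 and 51.5 CPM in osythdf1c, against 4.05 and 1.09 CPM in OE-OsYTHDF1A and 2.63 and 18.4 CPM in NIP. The remaining 3 blocks lay on chromosomes 5 and 6. There OE-OsYTHDF1A and osythdf1c had 9.6 against 1.82 CPM from LOC_Os05g05610, 2.74 against 15.5 CPM from LOC_Os06g09950 and 61.2 against 14.6 CPM from LOC_Os06g50920.

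**Figure D5:**
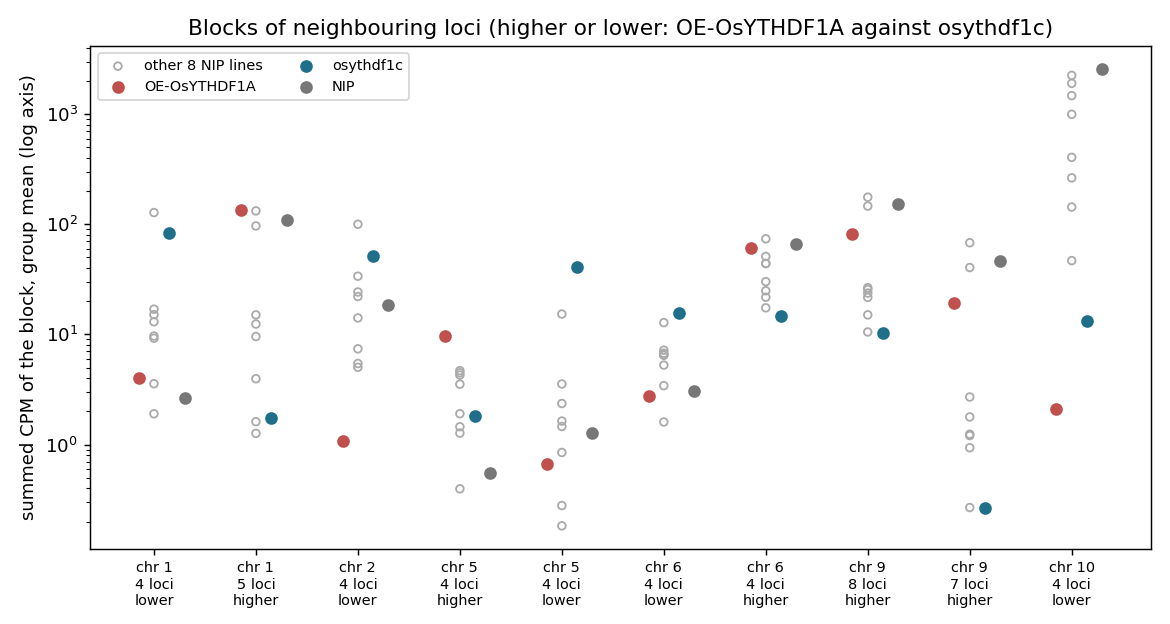
Summed CPM of each of the 10 blocks on a log axis, as group means for OE-OsYTHDF1A, osythdf1c, the NIP wild type and the 8 other NIP lines (open circles), ordered by chromosome. In the block of 7 loci on chromosome 9 osythdf1c is at 0.266 CPM beside 46.5 CPM in NIP, and on chromosome 10 both lines lie below all the other NIP groups.

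The direction of the differences varied with level more than with gene length. In 5 bins of length, from under 500 bases to 4000 bases and more, the median log2 fold change lay between -0.01 and 0.00. The share of 2-fold lower genes fell from 14.5% in the shortest to 6.6% in the longest bin. That of 2-fold higher genes fell too, from 10.9% to 4.3%. By mean level, the 6159 genes below 1 CPM had a median of -0.10, the 3 bins from there to 1000 CPM had medians between -0.03 and 0.04, and the 81 genes at 1000 CPM or more a median of 0.61 (0.44 with library totals). Features listed by a running number without a locus differed at least 2-fold somewhat more often than MSU loci. They were 7.52% higher and 13.3% lower, against 6.51% and 9.88%, and they were also less abundant, with a median of 1.55 CPM against 8.83 CPM.

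The one locus that could be paired with a name, LOC_Os01g19850, is listed in the reference under the synonym OsCCC2, a name for a cation chloride cotransporter, a membrane protein that moves chloride together with cations. It had 1.07, 1.23 and 0.941 CPM in OE-OsYTHDF1A and 0.46, 0.641 and 0.396 CPM in osythdf1c. The libraries did not overlap, as for 59.4% of all genes tested. The difference was a log2 fold change of 1.28 ± 0.35 (SE; Benjamini-Hochberg adjusted p of 0.0012 in edgeR). The wild type, with 0.294, 0.388 and 0.616 CPM, overlapped with osythdf1c. Among the other NIP lines the mean ran from 0.555 CPM in osythdf3b to 2.72 CPM in osythdf1b. The mean of OE-OsYTHDF1A, 1.08 CPM, lay inside that range. These levels rest on 58 counts over the 3 libraries of OE-OsYTHDF1A and 26 over those of osythdf1c.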

How the data were processed

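RNA was sequenced from total RNA of 44 libraries. The submitters' processing notes name HISAT2, featureCounts and the build IRGSP-1.0; versions, settings and strand use are not stated there, so antisense and overlapping genes cannot be told apart. The authors deposited raw read counts by gene and a table of FPKM. In the deposited tables the FPKM matched the count over the library total and 1 constant length, checked for the 17076 genes with at least 20 counts in all libraries. Another 40 columns in each table belong to no sample here and were left out. Of 58089 features, 55801 have an MSU locus ID. The reference table (assembly ASM3414082v1, names only) matched 1 ID, so the planned gene lists could not be paired and were not run, and no sequence is shown.

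edgeR 4.0.16 in R 4.3.3 (TMM, filterByExpr, robust quasi-likelihood test, two-sided) was fitted to the 33 libraries labelled NIP, with 1 mean per group and no covariate. Of 27584 genes tested, 221 had no count in either line. Standard errors of log2 fold changes were derived from the F statistic (size over root F). Ratios with 1 to 3 counts have exact intervals, a group without counts was set to a floor of 3 counts in all, and both cover counting error only. Printed loci are the first 2 with a locus ID each way by fitted change, among called genes with at least 5 CPM in the higher line and no overlap. Other loci were chosen after their values were seen. The comparison, rules and lists were chosen with earlier results of these data known. No replicates were collapsed, since the chi-square per degree of freedom between replicates was 2.31 to 4.58. The test was checked on simulated data in which only few genes differed between the lines, evenly up and down. Since far more genes differed in the real data, that check does not bear on the scaling. Alternatives were other scalings, filters, tools (DESeq2 1.42.0, limma 3.58.1 on log2 FPKM), libraries in the fit and thresholds.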

Additional observations from a re-analysis of the deposited data

How the results depend on the processing

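Over the 17 alternatives, all 9 loci named with a test kept their direction and an adjusted p under 0.05 in the tool used. The number of genes called ranged from 14028 with only the 6 libraries to 15868 with library totals, apart from 4834 (2027 higher, 2807 lower) when edgeR's glmTreat asked for more than 1.5-fold. Leaving out 1 replicate gave 14266 to 14737 genes called. The number of higher genes was 4807 with library totals, and in limma on the FPKM, also scaled by library totals, it was 4673 (pseudocount 1), 4778 (0.1) and 4774 (1, no filter). At 2-fold, limma with pseudocount 1 gave 2040 called (611 higher, 1429 lower), and 2039 with no filter (611 and 1428). With 0.1 it gave 3973 (1168 higher, 2805 lower). These fits change tool, filter and scaling together, and the cause was not tested.

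Same-numbered libraries of the 2 lines did not deviate together (correlations of -0.12, 0.01 and -0.20), so the numbers are not taken as pairs. With the replicate block 15339 genes were called in the fit of 33 libraries and 14179 in that of 6.

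Counts that rest on a threshold moved with it. On in OE-OsYTHDF1A and off in osythdf1c were 94 genes at 0.5 CPM, 20 at 2 CPM and 10 with off at 0 counts, and in the opposite class 241, 51 and 33. Genes above all other NIP groups numbered 224 at 1.5-fold and 6 at 4-fold in OE-OsYTHDF1A, and 386 and 49 in osythdf1c. Genes below all others numbered 476 and 52, and 119 and 2. TMM scaling gave 138 genes above in OE-OsYTHDF1A. Windows of 25 or 100 loci, and library totals, left the largest share of a window within 1.5 times. Library totals lowered the median log2 fold change in each bin of length and level, to between -0.27 and 0.44. Near or below 1 CPM, no counts in a line do not show absence at this depth.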
